A study of Drosophila melanogaster with 3 samples.

Results

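Binding of Blimp-1 was examined at 8 core genes of the Notch pathway in Drosophila melanogaster, N, Dl, Ser, Su(H), H, fng, neur and numb, out of 13945 protein-coding genes. The 8 genes were chosen by name for their role in the pathway, with earlier results of these data known. A window of each was taken as the gene body plus 10 kb on each side on the dm6 genome build. Of 4990 reproducible Blimp-1-GFP sites in the genome, 22 had their summit in these windows. The data came from chromatin immunoprecipitation followed by sequencing (ChIP-seq) with an antibody against green fluorescent protein (GFP), carried out on whole prepupae, males and females pooled, of unknown age. The flies were a stable transgenic line in which GFP was fused to the C terminus of Blimp-1, and 3 biological replicates made up the only group. The labels name a possible control experiment, which was not analysed here, and no untreated or mutant group was compared. The values therefore describe this group, without a test between conditions. A tagged transgene also limits the material as a model, since the labels do not state its level relative to the native protein. In whole animals, binding in a few cells and weak binding in many cells cannot be told apart, and peak lists carry no expression with which the stage or tissue could be checked.

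Notch is a transmembrane receptor that is cleaved when a ligand on a neighbouring cell, Delta (Dl) or Serrate (Ser), binds to it. The freed intracellular domain enters the nucleus and turns the DNA-binding protein Suppressor of Hairless, Su(H), from a repressor into an activator, while Hairless (H) ties Su(H) to corepressors. Fringe (fng) adds sugars to the receptor and shifts its choice between the ligands, neuralized (neur) is a ubiquitin ligase that sends ligands into endocytosis, and numb blocks the receptor in the daughter cell that inherits it. In the epidermis and imaginal discs around metamorphosis the pathway is known for setting wing margins, veins, leg joints and the fates of sensory organ cells. Blimp-1 is a zinc finger repressor induced by the hormone ecdysone and known for timing gene expression in prepupae.

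The DNA at the leading sites is given first, as 201 bases of the plus strand centred on the summit, read from the dm6 genome sequence. Capitals mark GAAAG, the centre of the known Blimp-1 motif, or its complement CTTTC, and a sequence without capitals holds neither. The first 4 are sites of numb, fng and neur that exceeded the signal of the median site and whose nearest start was that of the gene itself, and they are shown for their high signal near a member's own promoter.
numb internal promoter (chr2L:9449476-9449676, plus strand): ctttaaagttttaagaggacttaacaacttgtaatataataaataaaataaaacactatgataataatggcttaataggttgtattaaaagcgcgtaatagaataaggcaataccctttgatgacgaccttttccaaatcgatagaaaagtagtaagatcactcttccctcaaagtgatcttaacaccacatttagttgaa
fng upstream site (chr3L:20950859-20951059, plus strand): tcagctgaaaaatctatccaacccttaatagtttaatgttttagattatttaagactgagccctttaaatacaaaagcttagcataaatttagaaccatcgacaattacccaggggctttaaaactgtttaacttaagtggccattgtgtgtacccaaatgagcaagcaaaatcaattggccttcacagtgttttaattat
neur intron (chr3R:9031911-9032111, plus strand): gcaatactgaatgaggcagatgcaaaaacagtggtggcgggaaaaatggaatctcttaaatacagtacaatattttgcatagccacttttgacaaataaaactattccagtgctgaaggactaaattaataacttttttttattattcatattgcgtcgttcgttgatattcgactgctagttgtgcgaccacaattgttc
neur internal promoter (chr3R:9033814-9034014, plus strand): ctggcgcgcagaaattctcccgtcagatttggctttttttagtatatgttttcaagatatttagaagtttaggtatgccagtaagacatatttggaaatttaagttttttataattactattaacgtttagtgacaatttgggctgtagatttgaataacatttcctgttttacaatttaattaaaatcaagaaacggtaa
The next 3 are shown for contrast, as the strongest intron sites of the receptor N and the ligand Dl and the Ser site that was alone in holding an exact match to the long Blimp-1 consensus.
N intron (chrX:3162439-3162639, plus strand): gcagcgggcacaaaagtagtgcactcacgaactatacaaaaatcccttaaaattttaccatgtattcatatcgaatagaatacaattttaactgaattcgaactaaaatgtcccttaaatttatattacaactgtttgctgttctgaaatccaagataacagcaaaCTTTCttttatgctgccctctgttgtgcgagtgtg
Dl intron (chr3R:19321987-19322187, plus strand): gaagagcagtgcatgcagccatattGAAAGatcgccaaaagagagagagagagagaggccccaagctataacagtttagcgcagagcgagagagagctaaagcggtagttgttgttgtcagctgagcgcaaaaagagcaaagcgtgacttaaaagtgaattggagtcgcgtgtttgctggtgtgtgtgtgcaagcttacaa
Ser intron (chr3R:27175882-27176082, plus strand): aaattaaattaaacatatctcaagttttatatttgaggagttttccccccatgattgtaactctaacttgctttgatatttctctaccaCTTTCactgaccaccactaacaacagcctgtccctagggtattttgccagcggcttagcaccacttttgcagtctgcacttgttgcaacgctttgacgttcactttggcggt

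Signal at a site is the authors' value per peak. It is given below as relative signal, the value in a replicate divided by the median over all sites in that replicate, so that 1 is the median site of the genome. A site was counted as supported by a replicate when it overlapped one of that replicate's 4990 strongest peaks. The libraries carry no read counts in the deposited lists, so their depth is unknown. A peak was listed at 4988, 4955 and 4401 of the sites in replicates 1, 2 and 3, and the third replicate thus lacked one at 589 sites, 11.8% of all. These full lists are labelled as peaks and background together. Their lowest listed relative signals were 0.163, 0.0970 and 0.156 in replicates 1, 2 and 3.

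Blimp-1-GFP sites lay in the windows of 7 of the 8 genes, with Su(H) as the exception. A site lay in the window of 59.7% of all protein-coding genes. Ser held 5 sites, Dl and fng 4 each, neur and numb 3 each, N 2 and H 1. The median was 3 sites per window against 1 for all genes, whose middle 50% ran from 0 to 2. Windows with 3 or more sites were found for 5 of the 8 genes and for 16.4% of all genes. The members are long, with a median window of 42.8 kb against 22.2 kb for all genes. Counted per length, their windows held 6.80 sites per 100 kb, against 4.67 over the windows of all genes and 3.73 over the chromosome arms. The median member held 7.04 sites per 100 kb, below the upper quartile of all genes, 8.39. The same count from each replicate's strongest peaks alone gave 19, 20 and 18 sites in the windows, or 19.0 ± 1.00 (SD, n = 3), and a density 1.77 ± 0.126 times that of the arms.

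**Figure D1:**
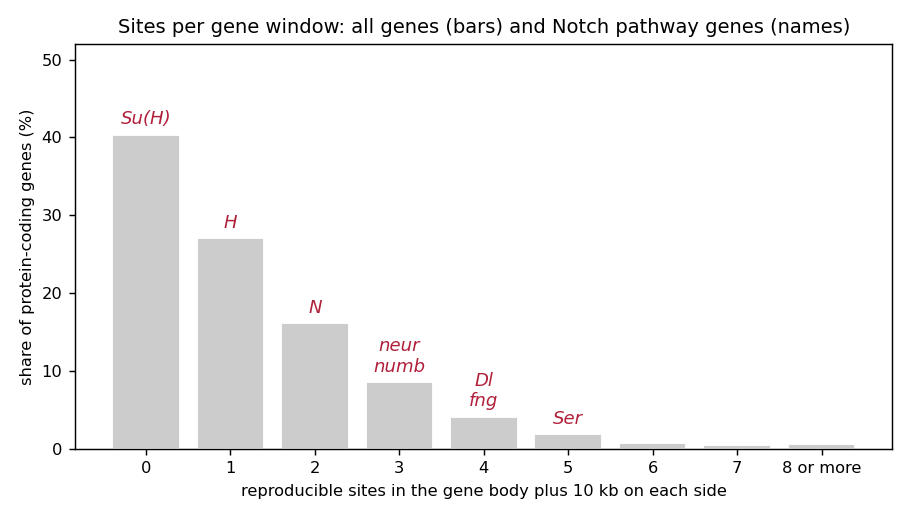
Share of the 13945 protein-coding genes (y axis, %) by the number of reproducible sites in the gene body plus 10 kb on each side (x axis). Names mark the count of each of the 8 Notch pathway genes, from 0 for Su(H) to 5 for Ser, and the last bar pools genes with 8 or more sites.

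Strong binding was not a general property of these sites. Their relative signal ran from 0.558 to 2.92 with a median of 0.893, against 0.983 for all sites, whose highest value was 25.7. A value above 1 was reached by 8 of the 22 and by 48.9% of all sites. In the order of all sites by deposited signal they ranked from 484 to 4589. Within single replicates the 22 sites had medians of 0.952, 0.946 and 0.859, in the order of replicates 1 to 3. All 3 replicates supported 11 of the 22 sites, which is 50% against 56.9% of all sites. A further 8 sites were supported by 2 replicates, 2 by 1 and 1 by none, and 20 of the 22 had some peak in all 3 full lists.

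The summits lay outside exons. Of the 22 summits, 12 were in introns of the members themselves, 2 in introns of neighbouring genes and 8 between genes, and 0 lay in an exon. A site within the gene body was found for N, Dl, Ser, neur and numb, 5 of the 8 genes, and for 13.0% of all genes. Since the members are long, these shares are not comparable per length. Gene bodies held 7.35 sites per 100 kb for the members and 3.64 for all genes. Upstream flanks held 8 of the 22 summits and downstream flanks 2. Another gene's transcription start site (TSS) was nearer than the member's own for 9 of the 22 sites. Positions by intron, exon, flank and nearest TSS were not counted over all sites. These position counts are therefore not set against the genome. Only 3 of the 11 annotated TSSs of the members had a summit within 1000 bp, which is called a promoter site here. These belonged to fng, neur and numb, so that 3 of the 8 genes (37.5%) had a promoter site against 18.7% of all protein-coding genes. In each replicate's own strongest peaks the same 3 genes had a promoter site, as did 18.8%, 16.8% and 13.7% of all genes. The 3 promoter sites had relative signals from 1.41 to 2.92. The 19 sites farther away ran from 0.558 to 1.72 with a median of 0.801, so the ranges overlapped. Signal by distance from a TSS was not computed over all sites.

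**Figure D2:**
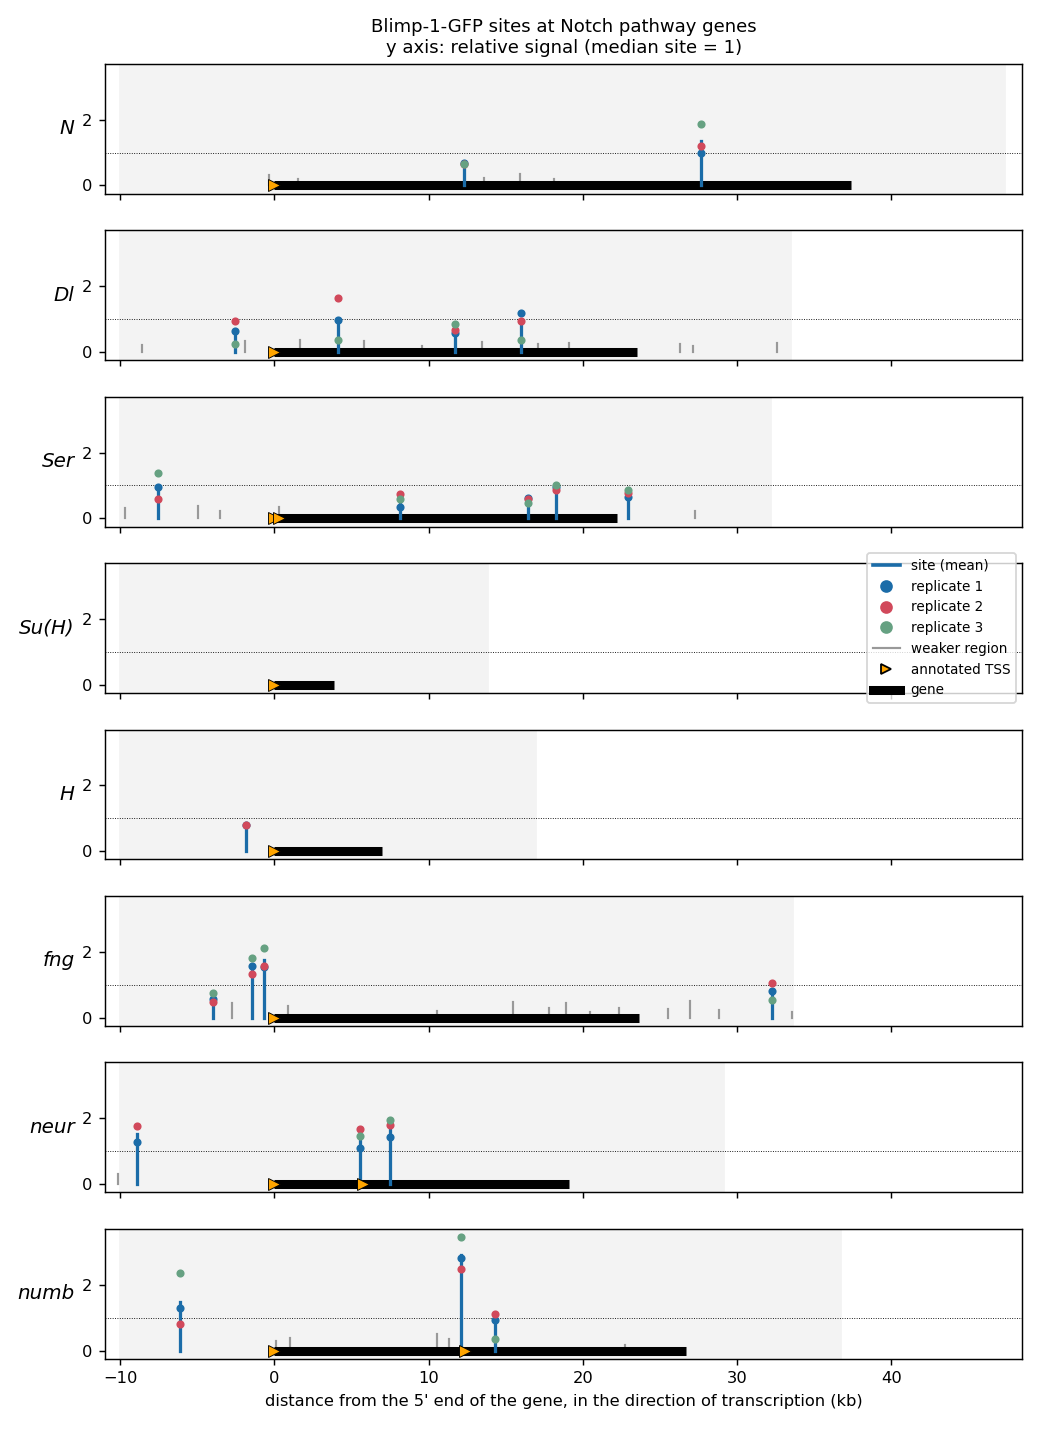
Position of the sites along each gene, as the distance from its 5′ end in kb in the direction of transcription (x axis), with relative signal on the y axis (dotted line at 1, the median site). Blue lines are site means and dots are replicates. Grey ticks are the 39 of 92 weaker regions of the pooled relaxed list that had a peak in all 3 replicates. Triangles are annotated TSSs, black bars are genes and shading is the window of the gene body plus 10 kb. The tallest line, at 2.92, stands just upstream of the internal TSS of numb, and the taller lines of fng stand just upstream of its TSS.

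The receptor gene N, on chromosome X from 3134870 to 3172221 on the plus strand, held its 2 reproducible sites within its introns. Its stronger site, at chrX:3162386-3162645, lay 27669 bp downstream of the TSS and ranked 1688. Replicates 1, 2 and 3 had relative signals of 0.977, 1.19 and 1.87 there, with a mean of 1.34 ± 0.468 (SD, n = 3). The third replicate was the high one, and the other 2 lay close to the median site. The second site, at chrX:3146944-3147413 and 12309 bp from the TSS, was below the median site and very even, at 0.664 ± 0.00877 (SD, n = 3). Both sites were supported by all 3 replicates. The N promoter itself had only a weaker region, 368 bp upstream of the TSS in the 3′ untranslated region of the neighbouring gene kirre, with a relative signal of 0.310 ± 0.204 (SD, n = 3). Replicates 1, 2 and 3 stood at 0.542, 0.155 and 0.233 there. In weaker regions such as this one, weak binding and background cannot be told apart.

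The ligand gene Dl, on chromosome 3R from 19302731 to 19326217 on the minus strand, held 4 sites, none of them supported by all 3 replicates. Its strongest, at chr3R:19321852-19322321, lay in an intron 4130 bp downstream of the TSS. At this site replicates 1, 2 and 3 stood at 0.971, 1.63 and 0.374 of relative signal, with a mean of 0.991 ± 0.627 (SD, n = 3). The third replicate was more than 2 fold below the other 2. The same replicate was the lowest at 3 of the 4 Dl sites, and its own strongest peaks held 1 site in the window against 2 and 4 in replicates 1 and 2. The remaining sites of Dl had means from 0.606 to 0.833, and the nearest to the TSS lay 2588 bp upstream of it. The 3 sites that were lowest in replicate 3 had from 40.3% to 58.7% G or C within 100 bp of the summit.

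The second ligand gene, Ser, on chromosome 3R from 27172090 to 27194267 on the minus strand, had the most sites of the 8 genes but none above 1 in the mean. Its strongest site, at chr3R:27201571-27202040, lay 7539 bp upstream of the nearest of its 2 TSSs. It reached a relative signal of 0.945, 0.576 and 1.38 in replicates 1, 2 and 3, with a mean of 0.968 ± 0.404 (SD, n = 3). The replicates thus fell on both sides of the median site. The intron site with the exact consensus, at chr3R:27175747-27176216, was nearly as strong and far more even, at 0.960, 0.876 and 1.02 and a mean of 0.953 ± 0.0733 (SD, n = 3). It lay 18013 bp downstream of the internal TSS of Ser, and the TSS of spn-D was nearer, at 10266 bp. The other 3 Ser sites had means from 0.558 to 0.761. At the Ser promoter there was a weaker region 11 bp from a TSS, in 5′ untranslated sequence, with a relative signal of 0.350 ± 0.0273 (SD, n = 3) and a peak in every replicate.

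The nuclear members Su(H) and H had 0 and 1 sites, beside 40.3% of all genes with 0 sites and a median of 1. Su(H), on chromosome 2L from 15039488 to 15043334 on the plus strand, is the shortest of the 8 genes and had 0 sites in its window of 23.8 kb. In every replicate's own strongest peaks its count was 0 as well, and the pooled relaxed list held 1 weak region in the window. The nearest reproducible summit, 13476 bp beyond the end of the gene in an intron of ck, had a relative signal of 1.67 ± 0.291 (SD, n = 3). H, on chromosome 3R from 20621938 to 20628915 on the plus strand, had 1 site, at chr3R:20619884-20620353, 1819 bp upstream of its TSS with the summit in an intron of CG5466, whose coding sequence reaches within 100 bp of it. Relative signal there was 0.787 and 0.807 in replicates 1 and 2, and replicate 3 listed no peak, so that the mean of 0.797 ± 0.0138 rests on 2 replicates (SD, n = 2).

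The receptor modifier fng, on chromosome 3L from 20925891 to 20949512 on the minus strand, had its stronger sites next to its promoter and no reproducible site within the gene. Its strongest site lay 700 bp upstream of its only TSS and ranked 1161. Relative signal there was 1.55, 1.59 and 2.12 in replicates 1, 2 and 3, with a mean of 1.75 ± 0.319 (SD, n = 3). A second site at chr3L:20950724-20951193 followed 747 bp farther upstream, with values of 1.56, 1.33 and 1.81 and a mean of 1.57 ± 0.238 (SD, n = 3). All 3 replicates exceeded the median site at both. The other 2 sites, one 4004 bp upstream and nearer to the TSS of Sems and one in the downstream flank, had means of 0.596 and 0.801. The window of fng had the most weaker regions of the 8 windows, 24, of which 12 had a peak in all 3 replicates. The strongest of these had a deposited signal of 191, just under the lowest signal among reproducible peaks, 205.

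The ligand regulator neur, on chromosome 3R from 9020348 to 9039471 on the minus strand, has 2 annotated TSSs, and both sites within the gene lay near the internal one. The promoter site, at chr3R:9033679-9034358, was 183 bp upstream of the internal TSS and ranked 1439. Relative signal there was 1.11, 1.66 and 1.46 in replicates 1, 2 and 3, with a mean of 1.41 ± 0.282 (SD, n = 3). A slightly stronger site, at chr3R:9031914-9032172, lay in an intron 1720 bp downstream of the same TSS, with values of 1.44, 1.79 and 1.93 and a mean of 1.72 ± 0.254 (SD, n = 3). Every replicate exceeded the median site at both, and the 2 ranges overlapped. The upstream TSS had no site nearer than 5557 bp. The third site of the window, at chr3R:9048275-9048461, lay 8940 bp upstream in an intron of Nmdmc and 234 bp from the TSS of Mst85C. It reached 1.28 and 1.78 in replicates 1 and 2, a mean of 1.53 ± 0.354 (SD, n = 2), and had no peak in replicate 3.

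The pathway inhibitor numb, on chromosome 2L from 9437469 to 9464184 on the plus strand, carried the strongest site of the 8 genes. This site, at chr2L:9449364-9449796, lay 254 bp upstream of the internal of its 2 TSSs, within an intron of the longer transcripts. Relative signal there was 2.81, 2.49 and 3.45 in replicates 1, 2 and 3, with a mean of 2.92 ± 0.486 (SD, n = 3). The lowest replicate value exceeded every replicate value at the other 21 sites. It ranked 484 and was the only one of the 22 among the 500 strongest sites, so that 1 of the 8 genes had such a site in its window against 12.0% of all genes. The upstream TSS of numb had no reproducible site within 6130 bp. Weaker regions with a peak in every replicate lay 118 bp and 914 bp from it. Their relative signals were 0.296 ± 0.100 and 0.397 ± 0.153 (SD, n = 3 each). That distance of 6130 bp led to a site at chr2L:9431296-9431454, which was 66 bp from the TSS of scat and had an uneven signal of 1.49 ± 0.806 (SD, n = 3). The last site, 1952 bp downstream of the internal TSS, had a mean of 0.797 ± 0.406 (SD, n = 3).

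Ordered by the strongest site of each gene, numb stood first, followed by fng, neur, N, Dl, Ser and H. Only numb and fng, as neighbours in this order, had replicate ranges that did not overlap, from 2.49 to 3.45 against 1.55 to 2.12. All other neighbours overlapped, so their order was within the spread of the replicates. The leading site of Dl changed when replicate 2 was left out, to the intron site ranked 2667 with 0.773. That of Ser changed without replicate 3, to the intron site with the exact consensus and 0.918.

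**Figure D3:**
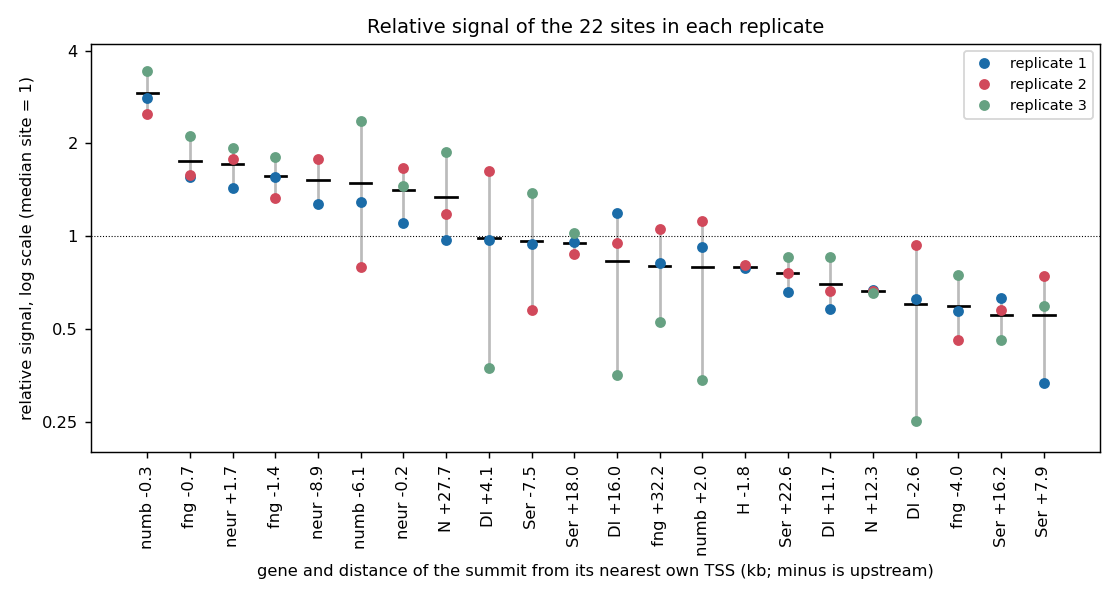
Relative signal of the 22 sites (y axis, log scale; dotted line at the median site) in each of the 3 replicates, ordered by the mean, which is the short black bar. Sites are labelled with the gene and the distance in kb from its nearest TSS (minus is upstream). The numb site stands clear of the rest, and the widest ranges belong to Dl and numb sites that were low in replicate 3.

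Below the reproducible threshold, the pooled relaxed list held 92 weaker regions in the windows, and 39 of them (42.4%) had a peak in all 3 replicates. The relaxed lists include background, so these regions are not counted as binding. Over the genome this held for 6063 of 18228 weaker regions, or 33.3%. Among the members Dl had the highest share with 11 of 17, fng had 12 of 24, Ser 5 of 11, N 5 of 20, numb 5 of 12 and neur 1 of 7. The single region of the Su(H) window lacked a peak in at least 1 replicate, and the H window held no such region.

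Replicate 3 differed from the others along base composition, at the Notch gene sites and over the genome. Over 4374 sites with a peak in every replicate, the log2 ratio of relative signal in replicate 3 to the mean of replicates 1 and 2 fell with the share of G or C within 100 bp of the summit, with a Pearson r of -0.52 and a Spearman rho of -0.56. The points share the same 3 libraries, so these are descriptions. Over the 20 Notch gene sites with such a ratio, r was -0.55 and rho -0.49. Of the 7 Notch gene sites with at least 40% G or C, 5 were lowest or absent in replicate 3. Of the 15 with less, 10 were highest in replicate 3 and 4 were lowest or absent there. Rank agreement between replicates over the Notch gene sites was likewise closest for replicates 1 and 2 (rho 0.77, 22 sites) and weakest for 2 and 3 (rho 0.34, 20 sites). The strong sites of numb, fng and neur with a nearest TSS of their own had from 29.4% to 35.3% G or C, and without replicate 3 the leading site was 2.65 for numb, 1.57 for fng and 1.61 for neur. The part of base composition in the signal of these sites was not tested.

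**Figure D4:**
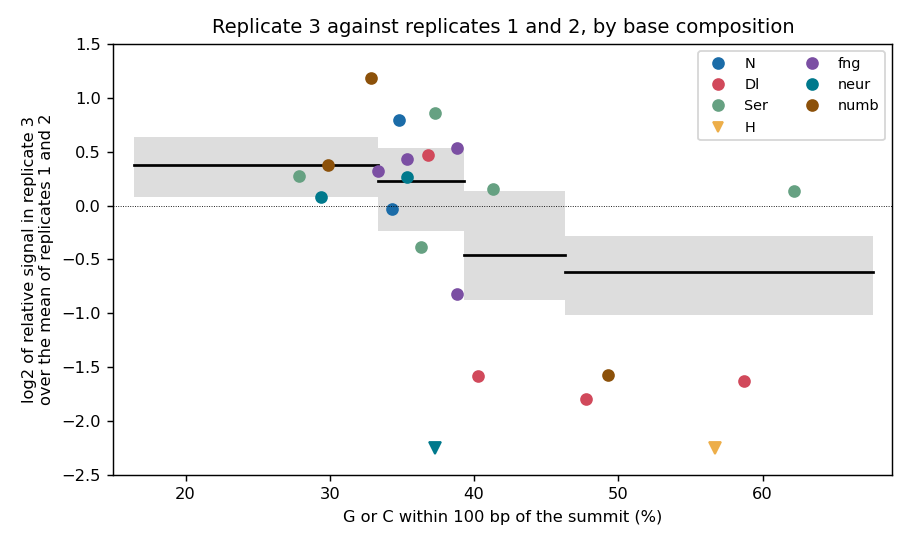
Log2 ratio of relative signal in replicate 3 to the mean of replicates 1 and 2 (y axis) against G or C within 100 bp of the summit in % (x axis). Dots are Notch gene sites by gene, black lines and grey boxes are the median and the middle 50% of all sites in each quartile of sites by G or C, and triangles at the lower edge are the 2 sites with no peak in replicate 3, placed there without a value. Dl and numb sites with over 40% G or C lie lowest.

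Known motifs were sought on both strands within 100 bp of each summit and in windows of the same length centred 500 bp to either side. GAAAG was found at 9 of the 22 Notch gene sites, or 40.9% with a Wilson 95% interval from 23.3% to 61.3%, and in 25% of their flanking windows. Over all sites it was found at 55.4% of summits and in 39.0% of flanking windows. GTGAAAG, a longer form that contains GAAAG, was found at 1 of the 22 summits and at 8.50% of all summits, and GAAAGT, which also contains it, at 5 of the 22 and at 28.3% of all. The long consensus known from the human protein, PRDI-BF1, was matched exactly at 1 of the 22 summits against 3.69% of all, and with at most 1 mismatch at 3 against 22.1%. Intervals cover counting error alone, and sites within a gene share a neighbourhood.

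The exact match was in the Ser intron, as CAGTGAAAGTG at chr3R:27175969-27175979 on the minus strand, 8 bp from the summit. Matches with 1 mismatch were CAGCGAAGGTG at chrX:3147137-3147147 on the plus strand, at the even and weak site of N, and CAGCGAAATTG at chr3L:20953538-20953548 on the minus strand, at the weak upstream site of fng. None of the 4 sequences printed for numb, fng and neur held GAAAG in the 201 bases. The Notch gene sites as a whole did not divide in this way, since GAAAG was found at 3 of the 8 above relative signal 1 (37.5%) and at 6 of the 14 others (42.9%). Those 3 were the stronger N site, the neur site near Mst85C and the numb site near scat. Over the genome GAAAG was found at 57.4% of 2441 sites above relative signal 1, and at 53.4% of the 2549 others.

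Motifs of factors that act with the pathway were sought as well. The core bound by Su(H), as GTGGGAA or GTGAGAA, was found at 2 of the 22 summits, in introns of Ser and numb, which is 9.09% against 4.73% of all summits. The Wilson 95% interval, from 2.53% to 27.8%, includes the share of all summits. The windows flanking the Notch gene sites held this core in 6.82%, and those flanking all sites in 4.57%. The E-box of proneural factors, as CAGCTG or CAGGTG, was found at 7 of the 22, or 31.8% with a Wilson 95% interval from 16.4% to 52.7%, against 14.0% of all summits. It was also found in 18.2% of the windows flanking the Notch gene sites and in 15.8% of those flanking all sites. Those 7 sites were 2 of Dl, 2 of Ser and 1 each of fng, neur and numb. GAGAG was found at 8 of the 22 and at 32.0% of all summits.

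Among 34 other genes of the pathway, 12 had a promoter site (35.3%) and 26 had a site in the window (76.5%), beside the 18.7% and 59.7% of all genes. This list was drawn up with earlier results of these data known, so its shares are not independent of them. Promoter sites were found for 4 of 9 nuclear genes and 6 of 16 genes grouped under ubiquitin transfer or trafficking. That group was drawn broadly and also held wry, sca and dally, which had no promoter site. They were also found for 1 of 2 genes of glycosylation and 1 of 7 genes grouped under cleavage. The highest relative signal among them was at l(2)gd1, which encodes an endosomal protein, with 2.85 ± 0.670 (SD, n = 3). The Mediator subunit gene skd followed with 2.73 ± 1.61 (SD, n = 3), where the TSS of Pdss2 was nearer. The corepressor genes gro and CtBP had 2.00 ± 0.536 and 1.11 ± 0.217 (SD, n = 3 each). The gamma-secretase subunit gene aph-1 had 1.60 ± 0.481 (SD, n = 3), where the TSS of Snx21 was nearer. At the promoter sites of dx and AP-2alpha the TSSs of RpL7A and ebi were likewise nearer.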

How the data were processed

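Whole prepupae expressing Blimp-1-GFP were profiled by ChIP-seq against GFP, and the labels place the 3 biological replicates in 1 group. The authors deposited peak lists on the dm6 and dm3 builds, of which the dm6 lists were used here. Used were the relaxed peaks of each replicate (30000 apiece), those of the pooled data, and 5573 peaks past a threshold on the irreproducible discovery rate (IDR), all in the narrowPeak layout. The relaxed lists are labelled as peaks and background serving as input for IDR. The deposited column 7 was taken as signal per peak. Its scaling, the aligner and the peak caller with its settings were not given in the sources used here. Signal was therefore expressed as a multiple of the median site in its own list. The deposited column 9 was taken as −log10 of a q-value. It stood at its highest value for 82.2% of the IDR peaks and was not used for ranking. Read counts are not part of these files. Depth is thus unknown, and precision is given by the spread over replicates.

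Overlapping IDR peaks were merged to 4990 sites, each keeping the summit of its strongest peak. For relative signal, the strongest peak of a replicate that overlapped a site by at least 1 bp was taken, and its signal was divided by the median of that replicate over sites with a peak. Means and SDs cover those replicates that list a peak. Genes and TSSs came from the Ensembl release 115 annotation, and sequences from genome release 6, the assembly known as dm6. Dl is named Delta in that annotation and was matched by its FlyBase identifier. Coordinates are counted from 1. The sequence of the strongest fng site is not reported here. A promoter site had its summit within 1000 bp of an annotated TSS. Scripts ran in Python 3.11.15 with numpy 2.4.6 and scipy 1.17.1, and the merging, overlap and motif steps were tested on simulated peaks.

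The 8 genes, the list of 34 further pathway genes and the motifs were chosen with earlier results of these data known. All 8 genes are described, each with its strongest site in every replicate. Further sites are given in full where they ranked in the strongest 500 or lay within 1000 bp of a TSS of the gene, and 3 more, at fng, Ser and neur, were chosen after their values were seen. Of the 34, the 5 with the highest promoter signal are named. With 1 group no test was run, and counts stand beside those over all genes or sites. The alternatives covered the flank, the peaks counted as sites, the promoter distance, the scaling and leaving out each replicate. IDR lists cannot be remade from these files, so leaving out a replicate kept the sites supported by the other 2, except that the count of sites in the windows kept those with any peak in both other relaxed lists, and mean signals were taken over the remaining replicates at the same 22 sites.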

Additional observations from a re-analysis of the deposited data

How the results depend on the processing

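The 3 genes with a promoter site were fng, neur and numb under sites supported by all 3 replicates, the strongest 50% of sites, assignment to the nearest TSS and the omission of any 1 replicate. Within 500 bp fng dropped out (2 genes), within 2000 bp H was added (4 genes), and with every region of the pooled relaxed list 6 genes qualified, as did 45.4% of all genes. The count of 22 sites became 12 without flanks, 9 among the strongest 50% of all sites and 114 in the pooled relaxed list. Sites with any peak in both other relaxed lists numbered from 20 to 22 on leaving out a replicate, and sites supported by the strongest peaks of both numbered from 12 to 16. Support by all 3 replicates rose from 11 to 20 sites with the full relaxed lists. The density of 6.80 sites per 100 kb became 7.35, 8.19 and 7.40 with flanks of 0, 2 and 5 kb. Over the windows of all genes the same flanks gave 3.64, 4.58 and 4.61. The density of the member windows lay from 3.71 to 4.95 on sites supported by the 2 remaining replicates. There it was from 1.56 to 1.84 times that of the arms, and all gene windows were not recounted. The median relative signal of 0.893 became 0.815 with flanks of 5 kb and ran from 0.780 to 0.980 on leaving out a replicate. It was 0.879, 0.780 and 0.980 without replicates 1, 2 and 3, against 0.987, 0.976 and 0.988 for all sites. The lower median of the Notch gene sites thus nearly disappeared without replicate 3. GAAAG within 50 bp of the summit was found at 27.3% of the Notch gene sites and 38.4% of all sites, so the share stayed lower there. GAAAG within 150 bp of the summit was found at 68.2% of the Notch gene sites and 66.4% of all sites. The lower share at 100 bp thus did not hold at that width. It did not hold without flanks either, where GAAAG within 100 bp was at 58.3% of the sites, against 55.4% of all sites. That value still lay within the set margin, the Wilson interval. On Notch gene sites supported by all 3 replicates the share within 100 bp was 36.4%. It was 38.5%, 33.3% and 50% without replicates 1, 2 and 3, and all sites were not recounted for these. The strongest site of H moved from 0.797 to 0.746 when replicates were scaled by their own strongest peaks. Of all planned recalculations for counts, medians, densities and shares, 30 stayed within the set margins and 15 moved beyond them. For single genes 27 stayed within the margins and 1 moved. The cause of these shifts was not tested. No paired analysis was possible because the samples form 1 group.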

Other observations

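Binding near the windows was uneven. Between 10 and 20 kb from the 8 genes lay 11 further sites, of which 6 were on the side of neur that faces Kdm2. One of these, in an intron of Kdm2 at chr3R:9057249-9058029 and 18234 bp from neur, was the strongest site of the genome, with a relative signal of 25.7 ± 3.49 (SD, n = 3). Its 3 replicate values were 27.5, 28.0 and 21.7, against a highest value of 1.93 at any neur site. The sites nearest to a window border on the outside were 10922 bp from Ser with 0.736 and 11287 bp from neur with 0.95. Kul encodes a metalloprotease of the cleavage group. It had no promoter site but a site of 4.40 in its window, above all 22 sites of the 8 genes.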
